A study of Mus musculus with 4 samples.

Results

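Of 26106 nuclei kept from mouse basolateral amygdala (BLA), 603 (2.31%) were high in Rorb while carrying a transcript of a glutamate transporter and little or no trace of the inhibitory or Rspo2 classes. A nucleus was kept when it had 500 or more genes, under 5% of its unique molecular identifiers (UMIs, each a counted transcript molecule) from mitochondrial genes and under 25000 UMIs. Members had at least 1 UMI of the vesicular glutamate transporters Slc17a7 and Slc17a6 together, at most 1 UMI of Gad1 and Gad2 together, at most 1 UMI of Rspo2, and at least 4 Rorb UMIs that made up at least 4 per 10000 of the nucleus's UMIs. They numbered 186 in WT replicate 1, 104 in DISC1-N replicate 1, 155 in WT replicate 2 and 158 in DISC1-N replicate 2. Wherever 4 values stand in a row below, they are in that order of libraries. The members were thus chosen by their measured Rorb, transporter, Gad and Rspo2 UMIs, so the levels of these genes and every contrast with Rorb 0 nuclei are given as descriptions, with no test.

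The study compared C57BL/6J mice of 2 genotypes, wild type (WT) and DISC1-N, with 2 single-nucleus libraries of each. All mice of both genotypes had received tamoxifen intraperitoneally 6 h before the brain was taken, so no library is free of the drug. BLA from both hemispheres of 5 mice was combined for each group, and nuclei were isolated in a buffer that held actinomycin, a transcription inhibitor. Neither the construct behind DISC1-N nor the promoter that drives it is named in the labels. Nothing in the labels says that replicates of a genotype came from different mice, so every p-value may measure technical spread only.

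Rorb encodes RAR-related orphan receptor beta, a nuclear receptor that binds DNA beside hormone response half-sites, and in the neocortex it is best known for marking layer 4 neurons that receive thalamic input. Astrocytes are also known to transcribe Rorb, as they do Bmpr1b, which encodes a type I receptor for bone morphogenetic proteins (BMPs). BMP ligands bind a pair of type I and type II receptors, which phosphorylate Smad proteins that enter the nucleus, while secreted inhibitors such as chordin hold the ligands back. The BLA holds mostly glutamatergic projection neurons, and Rspo2 marks one of their classes.

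The chromosomal setting of the genes that give the set its profile is shown first. Rorb (ENSMUSG00000036192) lies on the minus strand of chromosome 19 at 18930605 to 19111196, and Bmpr1b (ENSMUSG00000052430) on the minus strand of chromosome 3 at 141837136 to 142169425 (mm10, GENCODE vM21). Upstream windows of these genes are printed because Rorb defines the set and Bmpr1b was high in both kinds of member described below. For Bmpr1b, only the window that holds a ROR-type element is printed. This element, TAGGTCA on either strand, is in capitals. The sequences are from RefSeq (GRCm38.p6) and run 5′ to 3′ on the gene's strand for 250 bases before a transcript start. The first Rorb window, chr19:19111197-19111446, lies before the longest transcript, and the other, chr19:19001118-19001367, lies within an intron of Rorb. The printed Bmpr1b window, chr3:141931589-141931838, lies within an intron of the longer Bmpr1b transcripts.
Rorb, first start: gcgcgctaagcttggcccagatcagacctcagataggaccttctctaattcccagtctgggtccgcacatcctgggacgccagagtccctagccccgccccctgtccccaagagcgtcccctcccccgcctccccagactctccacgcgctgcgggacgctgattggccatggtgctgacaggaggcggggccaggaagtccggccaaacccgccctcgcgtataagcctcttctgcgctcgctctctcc
Rorb, inner start: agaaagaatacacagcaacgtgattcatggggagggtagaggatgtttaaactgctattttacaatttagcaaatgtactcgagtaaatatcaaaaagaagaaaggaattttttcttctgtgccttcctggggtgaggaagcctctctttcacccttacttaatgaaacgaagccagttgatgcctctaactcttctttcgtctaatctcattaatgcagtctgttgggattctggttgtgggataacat
Bmpr1b, inner start: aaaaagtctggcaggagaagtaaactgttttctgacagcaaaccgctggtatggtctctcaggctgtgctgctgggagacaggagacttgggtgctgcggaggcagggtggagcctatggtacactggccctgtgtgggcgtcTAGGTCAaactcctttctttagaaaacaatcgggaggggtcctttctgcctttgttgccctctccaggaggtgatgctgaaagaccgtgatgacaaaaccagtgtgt
The printed Bmpr1b window held 1 match, and neither Rorb window held one. The other Bmpr1b windows, chr3:141931421-141931670 and chr3:141982265-141982514, held no match and are not printed. Over all RefSeq windows of this length, 734 of 32851 (2.23%) held the element. Among 17 matched genes of 23 looked for, which were the given markers and the leading genes of the excitatory-marker nuclei described below, 1 of 24 windows did. A match here describes letters only.

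The 4 libraries held 27313 barcodes with 37840301 to 48439711 UMIs each, and library pairs shared 5 to 21 barcodes, at most 0.344% of the smaller library. Members had median totals of 6612.5, 7424.5, 5143 and 6133 UMIs. The file headers give 1 Cell Ranger version for both replicate 1 libraries and another for both replicate 2 libraries, so the replicate number stands for a processing batch balanced over genotype. Replicate 2 libraries had lower mitochondrial shares: the excitatory-marker members' medians were 0.108%, 0.0649%, 0.0160% and 0.0212%.

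The data went against the label of excitatory neurons for 296 of the 603 members. Marker UMIs were counted in each member for 8 excitatory genes outside the rule (among them Camk2a, Neurod2, Neurod6, Tbr1, Nrgn and Sv2b) and for 8 astrocyte genes (Slc1a3, Slc1a2, Aqp4, Gja1, Aldh1l1, Gfap, Slc4a4 and Ntsr2). In those 296 members the astrocyte genes had at least as many UMIs as the excitatory genes, and in the other 307 they had fewer. These are called astrocyte-marker and excitatory-marker members below; the division was chosen after these data were seen. The astrocyte share of the marker UMIs had a median of 46.2%, but few members lay near it: 124 were under 20%, 205 were over 80% and 70 were between 40% and 60%. The whole set is therefore called Rorb-high nuclei with a transporter UMI, not neurons.

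**Figure D1:**
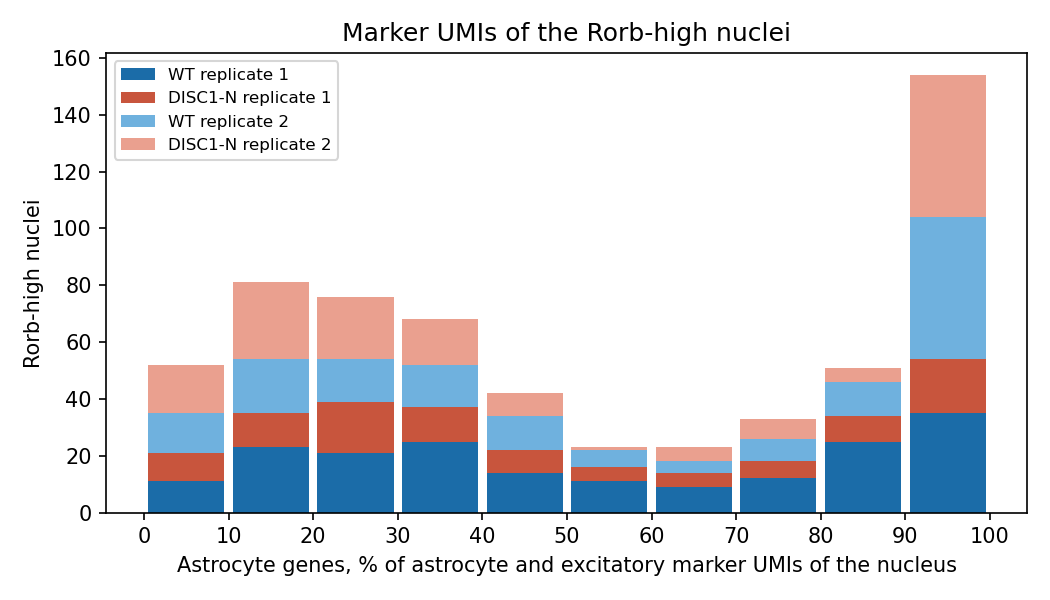
Number of Rorb-high nuclei (vertical axis) by the percentage of their astrocyte and excitatory marker UMIs that came from the 8 astrocyte genes (horizontal axis, bins of 10 points), stacked by library. The highest bin, over 90%, held 154 nuclei and the bins from 50 to 70% held 23 each.

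Astrocyte-marker members made up 51.6% of members in WT replicate 1, 44.2% in DISC1-N replicate 1, 52.9% in WT replicate 2 and 45.6% in DISC1-N replicate 2. Both DISC1-N values were below both WT values, with means of 44.9% ± 0.947 and 52.3% ± 0.912 (SD, n = 2 each; exact permutation test, two-sided p = 0.33, the smallest that 2 against 2 libraries allow). Without the nuclei of highest Scrublet score, a doublet estimate computed per library, the difference was -5.76 percentage points instead of -7.36. Astrocyte-marker members were shallow, with medians of 3397.5, 2925, 2522 and 2562.5 UMIs against 8270, 9134, 7339 and 7595.5 in excitatory-marker members.

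One transporter UMI is a weak criterion in these libraries. Of the 603 members, 320 had exactly 1, and these were 204 of the 296 astrocyte-marker and 116 of the 307 excitatory-marker members. Among all kept nuclei that held 10 or more marker UMIs with at least 80% from astrocyte genes, a transporter UMI was present in 26.5%, 22.1%, 9.40% and 8.26%. Rorb passed the member threshold in 40.1%, 32.2%, 54.1% and 58.6% of those with a transporter UMI and in 34.0%, 30.8%, 56.4% and 56.3% of those without one. The 2 replicate 1 libraries thus had the higher transporter share and the lower Rorb share, and each genotype had 1 library on either side. Scrublet marked 16, 4, 29 and 25 members, of which 53 were astrocyte-marker (17.9%) and 21 excitatory-marker (6.84%). The part of doublets or free RNA in the astrocyte-marker members was not tested.

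Nuclei just inside and just outside the thresholds are described by Bmpr1b and marker UMIs. The 123 members with exactly 4 Rorb UMIs had 270.2 CPM of Bmpr1b (CPM are UMI counts scaled to a common total per library and set), and 73 of them had at least as many astrocyte as excitatory marker UMIs. The 147 nuclei left out for having 3 Rorb UMIs had 216 CPM of Bmpr1b and 92 such nuclei. A further 57 nuclei had 4 or more Rorb UMIs but under 4 per 10000, with 112 CPM of Bmpr1b and 15 such nuclei, both lower than in the other groups at the edge. Rorb itself spanned 4.01 to 36.1 per 10000 UMIs in excitatory-marker members (median 9.57) and 4.05 to 85.4 in astrocyte-marker members (median 19.9).

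All 603 members were set against the 6478 nuclei that had a Slc17a7 UMI and no Rorb UMI, which carry no limit on Gad or Rspo2 UMIs. Slc1a3, the astrocytic glutamate transporter GLAST, was at 457, 346, 548 and 497 CPM in members and at 28.2, 29.3, 13.9 and 13.2 in Rorb 0 nuclei. No library of one set overlapped the other, and the mean ratio was 21.9-fold (with 1 CPM added to each value, as in all ratios here). Etnppl, an enzyme of phosphoethanolamine breakdown found in astrocytes, was at 44.5, 34.0, 55.1 and 49.4 CPM against 1.98, 1.30, 0.573 and 0.511. Slco1c1, a thyroid hormone transporter, led by the mean ratio at 23.6-fold. Gja1 and Gjb6 (connexins), Fgfr3, Acsbg1 and the hedgehog effectors Gli2 and Gli3 were among the other 20 leading genes. At least 2-fold higher in all 4 libraries were 278 of 7581 genes compared (3.67%), and at least 2-fold lower were 79 (1.04%). All 6 astrocyte genes that reached 20 CPM were among the higher ones, with a median log2 ratio of 3.07. Of the 20 leading genes, 2 were on the astrocyte list. Against the 4834 Rorb 0 nuclei that were matched on depth and also limited to at most 1 Gad1 and Gad2 UMI, 318 of 7549 genes (4.21%) were higher and 78 (1.03%) lower, and 17 of the 20 leading genes were shared. Dlx6os1 (an interneuron and striatal transcript) and Drd1 (dopamine receptor D1) were among the lowest, at 5.48, 3.65, 5.51 and 4.94 CPM for Dlx6os1 against 44.7, 49.5, 30.1 and 33.6. With the Gad limit in the reference, Dlx6os1 was at 23.2, 17.4, 15.3 and 12.9 CPM there, and none of the 4 inhibitory list genes at 20 CPM was 2-fold lower.

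Because the whole set mixes both kinds, the neuronal profile is described in the 307 excitatory-marker members. They are set against 4526 Rorb 0 nuclei of that matched set that also had more excitatory than astrocyte marker UMIs. These 4526 are the matched Rorb 0 nuclei below, unless all 4834 are named. Unlike members, they carry no limit on Rspo2 UMIs: Rspo2 had a UMI in 48.5% of them and in 10.1% of excitatory-marker members. In this contrast 151 of 7246 genes (2.08%) were at least 2-fold higher in all 4 libraries and 101 (1.39%) at least 2-fold lower. Only Bmpr1b and Pamr1 were shared between the 20 leading genes of the whole set and those of the excitatory-marker members. The astrocyte list summed to 426 to 586 CPM in these nuclei, to 177 to 223 CPM in the matched Rorb 0 nuclei and to 4411 to 6825 CPM in astrocyte-marker members. Slc1a2, the glutamate transporter GLT-1, was at 399, 334, 375 and 318 CPM against 142, 154, 139 and 127, and Slc4a4, a bicarbonate transporter, at 115, 138, 137 and 96.3 CPM against 48.3, 38.0, 35.1 and 34.9. These were the 2 of 3 astrocyte genes at 20 CPM that were 2-fold higher in every library (list median log2 ratio 1.33). Of the other astrocyte genes, Aqp4 had 3 UMIs, Gfap 2 and Gja1 7 among 2738205 UMIs of the excitatory-marker members. The 10 inhibitory marker genes, which include the rule genes Gad1 and Gad2, summed to 1201 to 1650 CPM against 600 to 1082 CPM. Most of the members' sum was Erbb4, a neuregulin receptor typical of interneurons. It was at 1211, 1154, 1299 and 988 CPM against 585, 413, 396 and 332. Of 4 inhibitory genes outside the rule at 20 CPM, Erbb4 was 2-fold higher in every library and Adarb2 was 2-fold lower.

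Each of the given markers beside Rorb was higher in the excitatory-marker members of every library. Bmpr1b was at 287, 213, 259 and 216 CPM against 29.4, 21.9, 21.7 and 23.2 in matched Rorb 0 nuclei, a mean log2 ratio of 3.29 ± 0.16 (SD over 4 libraries). The lncRNA 4930467D21Rik was at 163, 94.5, 151 and 124 CPM against 8.97, 3.86, 6.76 and 10.6 (4.01 ± 0.41). Sema3d, a secreted class 3 semaphorin that steers growing axons, was at 51.1, 52.3, 44.0 and 65.6 CPM against 7.98, 10.4, 9.76 and 11.1 (2.32 ± 0.22). The sets did not overlap in any of these genes. In astrocyte-marker members Bmpr1b was as high, at 300.3, 252, 292 and 359 CPM, while 4930467D21Rik was at 48.4, 0, 44.3 and 30.5 CPM and Sema3d at 18.3, 8.69, 11.8 and 33.8 CPM. The 4 astrocyte-marker libraries were all below the 4 excitatory-marker libraries for both of the latter genes. Astrocyte-marker nuclei with no transporter UMI had 346, 264, 419 and 475 CPM of Bmpr1b and at most 9.74 CPM of 4930467D21Rik.

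Astrocyte-marker members were also set against 2922 nuclei with no transporter UMI, which had to hold 10 or more marker UMIs with at least 80% from astrocyte genes, a stricter limit than that of the members, so differences in marker genes follow from the definitions. At least 2-fold higher in all 4 libraries were 170 of 8295 genes (2.05%), and 6 (0.0723%) were lower. Zbtb20, a transcription factor of astrocytes and some forebrain neurons, was at 1013, 1108, 1444 and 1638 CPM against 1635, 1600.2, 2447 and 2698, and at 159, 143, 201 and 112 CPM in excitatory-marker members.

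The share of nuclei with a UMI was ordered differently for Bmpr1b and Sema3d. Bmpr1b was detected in 61.9% of excitatory-marker members, 68.9% of astrocyte-marker members and 10.9% of matched Rorb 0 nuclei. After nuclei with 2000 or more UMIs were thinned to 2000, the shares were 31.7%, 48.3% and 4.25%. Shallower nuclei were left out of the thinned shares: 1 excitatory-marker member, 58 astrocyte-marker members and 12 matched Rorb 0 nuclei. Sema3d was detected in 21.2%, 5.41% and 7.07%, and in 8.50%, 2.94% and 2.13% of the thinned nuclei, where the lower pair stood in the other order.

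**Figure D2:**
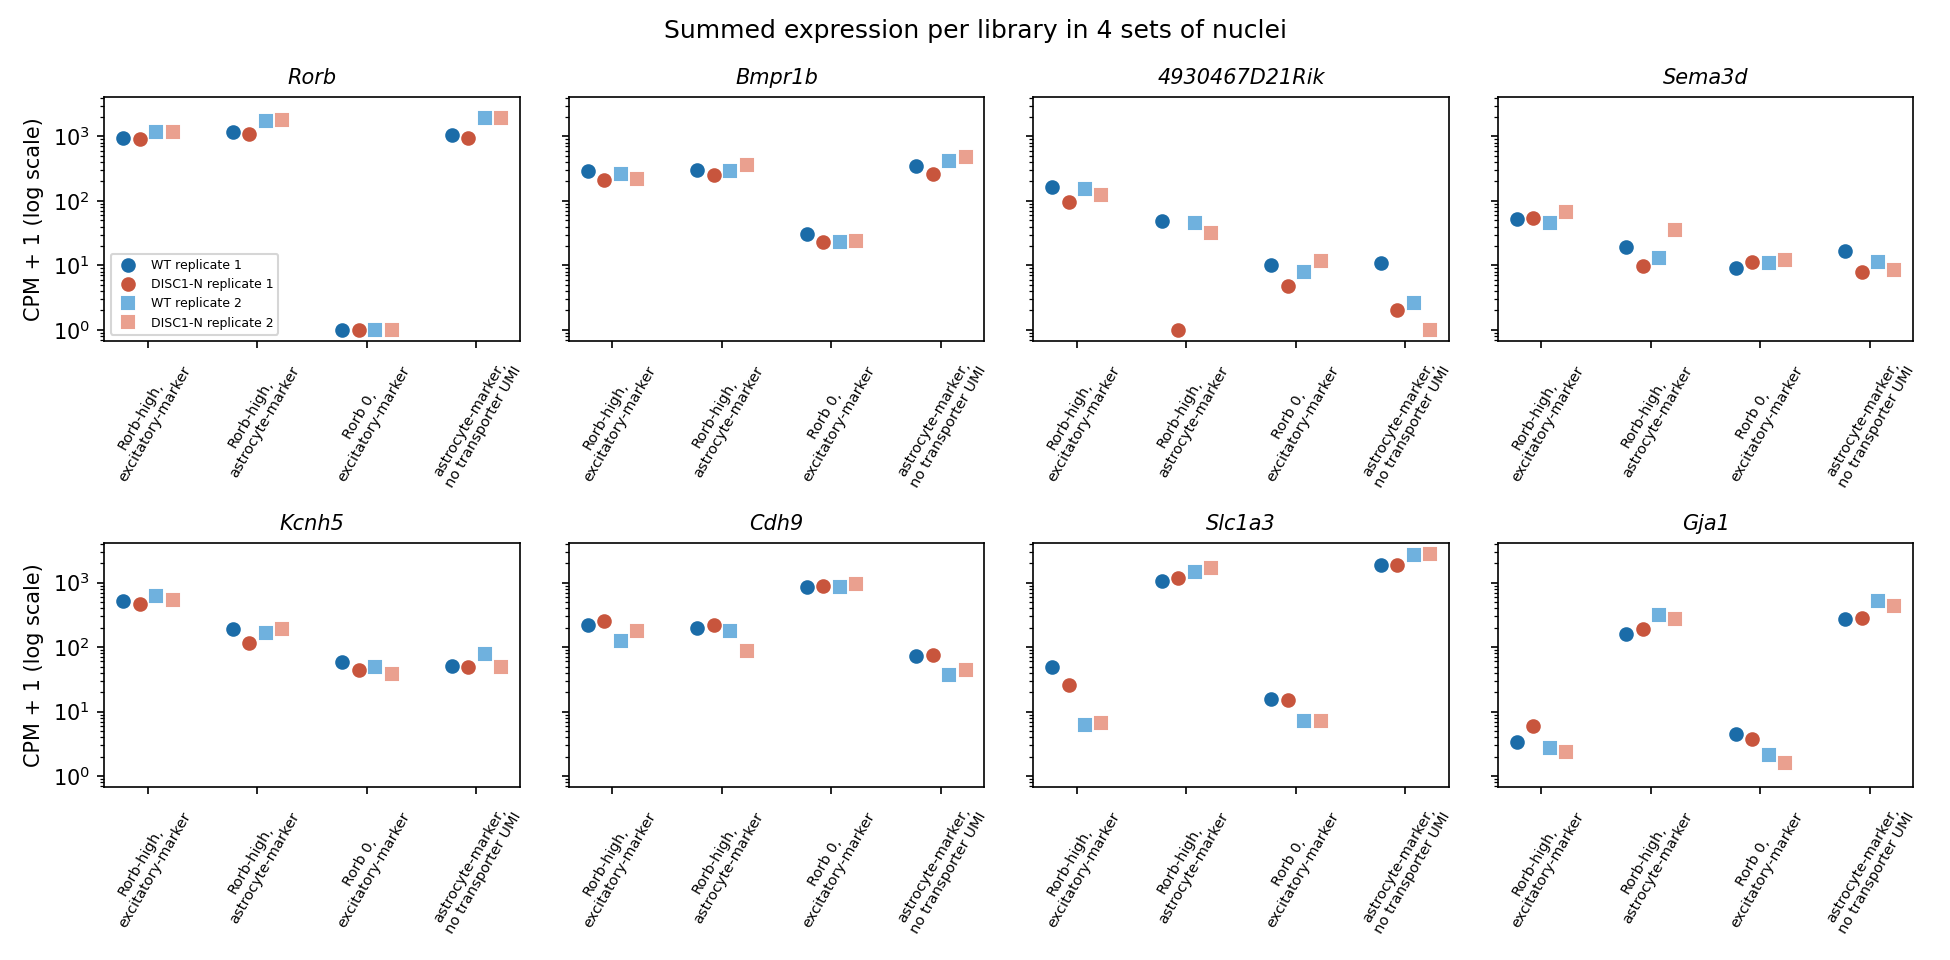
Expression of 8 genes (CPM + 1, log scale) summed per library in excitatory-marker and astrocyte-marker Rorb-high nuclei, depth-matched Rorb 0 nuclei and astrocyte-marker nuclei with no transporter UMI. The Rorb 0 nuclei shown are those with more excitatory than astrocyte marker UMIs. Each point is 1 library. Bmpr1b is high in all sets except Rorb 0 nuclei, 4930467D21Rik and Kcnh5 are highest in excitatory-marker members, and Slc1a3 and Gja1, which are among the genes that defined the astrocyte-marker sets, are high there by construction.

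Among BMP ligands, Bmp6 was higher in excitatory-marker members, at 39.5, 32.1, 68.7 and 37.7 CPM against 2.76, 3.54, 2.51 and 2.92, and Bmp3 was lower, at 12.8, 5.06, 3.52 and 0 CPM against 29.6, 31.4, 31.1 and 27.4. No library of the members overlapped the Rorb 0 nuclei for either ligand. Among receptors Bmpr1b stood alone: of 6 receptor genes at 20 CPM it was the one at least 2-fold higher, and none was lower. Another type I receptor, Bmpr1a, was at 80.1, 69.2, 70.4 and 82.4 CPM against 76.7, 77.1, 68.8 and 71.4, and the type II receptor Bmpr2 at 119.6, 96.2, 113 and 145 CPM against 119, 114, 136 and 134. Both overlapped between the sets. None of the 3 signal transducers at 20 CPM passed 2-fold, with Smad1 at 83.6, 60.8, 59.9 and 69.8 CPM against 47.7, 46.0, 41.7 and 46.3. Of 5 inhibitors, Fstl1 was lower, at 10.4, 8.44, 7.04 and 9.77 CPM against 26.3, 29.0, 28.3 and 29.2. Chrd, which encodes chordin, was at 30.2, 40.5, 12.3 and 30.7 CPM against 60.3, 65.7, 66.3 and 69.2, lower in every library but by under 2-fold in both replicate 1 libraries. The target genes Id3 and Id4, which BMP signals are known to induce, were under 20 CPM in excitatory-marker members and in matched Rorb 0 nuclei. Id3 was at 3.48, 3.38, 0 and 1.40 CPM there and at 75.1, 109, 79.7 and 71.1 CPM in astrocyte-marker members, with no overlap. Id4 was at 11.6, 8.44, 5.28 and 2.79 CPM in excitatory-marker members, at 3.75, 5.47, 2.61 and 2.50 CPM in matched Rorb 0 nuclei, lower in each library, and at 68.4, 82.5, 29.5 and 54.1 CPM in astrocyte-marker members.

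Axon guidance genes differed among both ligands and receptors. Of 3 class 3 semaphorins at 20 CPM, Sema3d and Sema3a were higher and Sema3e was lower. Sema3a was at 273, 233, 225 and 219 CPM against 82.6, 70.9, 94.2 and 98.9, and Sema3e at 16.3, 21.9, 10.6 and 9.77 CPM against 87.5, 102, 127 and 131. Plxnd1, the plexin that Sema3e binds, was at 44.1, 40.5, 37.0 and 51.7 CPM against 10.6, 8.58, 8.98 and 8.76. The set high in the receptor was thus low in its ligand, and the sets overlapped in neither gene. Nrp1, a neuropilin that binds Sema3a, was low, at 5.80, 11.8, 14.1 and 29.3 CPM against 65.8, 63.6, 77.3 and 78.2. The other 5 of 7 semaphorin receptors at 20 CPM did not pass 2-fold in all libraries.

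In each ion channel list, 1 or 2 genes passed 2-fold in every library. Kcnh5, a voltage-gated potassium channel of the ether-à-go-go family, was at 519, 473, 614 and 529 CPM against 58.6, 43.0, 47.3 and 38.0 (log2 ratio 3.50 ± 0.29). Its relative Kcnh1 was at 237, 219, 271 and 236 CPM against 86.3, 87.2, 84.3 and 95.9. These were the only 2 of 24 potassium and HCN channel genes that were 2-fold higher in every library, none was 2-fold lower, and the list's median log2 ratio was -0.10. Kcnk2 (a two-pore potassium channel, on no list) had a mean of 170.5 CPM against 21.9. Of 12 calcium channel genes, Cacna1e, the R-type channel, and the subunit gene Cacnb2 were lower, with Cacna1e at 197, 218, 227 and 286 CPM against 758, 731, 894 and 919. Of 13 sodium channel and axon initial segment genes, Fgf13 alone was higher (2.44-fold).

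Among glutamate receptors, 1 kainate subunit passed 2-fold. Grik3, a kainate receptor subunit, was at 12.8, 13.5, 15.8 and 18.1 CPM against 88.1, 104, 104 and 83.5, the only one of 14 AMPA and kainate genes to pass 2-fold. None of 18 NMDA receptor and scaffold genes and none of 5 metabotropic receptor genes did so. Serotonin receptors differed in both directions: Htr2a, the excitatory receptor bound by psychedelic drugs, was at 81.3, 70.9, 95.1 and 69.8 CPM against 10.3, 16.4, 13.9 and 9.85, and Htr7 and Htr2c were 3.24-fold and 2.18-fold higher. Htr4 was lower, at 3.48, 10.1, 14.1 and 14.0 CPM against 45.1, 49.2, 52.6 and 58.5. These were the 4 of 9 monoamine and neuropeptide receptor genes at 20 CPM that passed 2-fold. Oprk1, the kappa opioid receptor, was at 2.32, 5.06, 0 and 0 CPM against 23.2, 30.9, 29.8 and 33.9.

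Rora, which encodes the related receptor ROR alpha, was higher in the same nuclei, at 1415, 1254, 1595 and 1386 CPM against 395, 362, 446 and 414, and its ratio varied little (log2 1.80 ± 0.05). It was the only one of 12 ROR and circadian feedback genes to pass 2-fold. Nr1d2, which encodes the repressor REV-ERB beta that competes at ROR elements, had a log2 ratio of 0.56 ± 0.16. The list's median log2 ratio was 0.21.

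Markers of cortical layers gave no single match. Kcnh5 and Tox, the 2 of 7 layer 4 genes at 20 CPM, were higher, Tox by 2.47-fold (list median log2 ratio 2.40). The layer 4 genes Scnn1a and Endou had no UMI among 2738205, which allows up to 1.10 CPM (3 counts, counting error only), and Rspo1 had 2 UMIs. Cux2, an upper-layer transcription factor, was at 109, 115, 155 and 128 CPM against 52.2, 44.6, 49.0 and 56.7, while Otof of the same list was lower. The 5 layer 2/3 genes at 20 CPM had a median log2 ratio of 0.98. Against the Rspo2-high nuclei described below, all 4 layer 2/3 genes at 20 CPM were 2-fold higher in every library (list median 2.14). Each list of deeper layers and of amygdala or neighbouring regions held at least 1 gene that was 2-fold lower in every library. Only the hippocampal and subicular list also held a higher one. Of 5 layer 5 genes at 20 CPM 2 were lower, and of 3 layer 6 and subplate genes 1 (list median log2 ratio -0.02). Of 4 hippocampal and subicular genes Fn1 was higher and Spink8 lower. Of 5 amygdala excitatory genes outside the rule, Meis2 and Adamts2 were lower (list median -1.50). The matched Rorb 0 nuclei had no Rspo2 limit, and the part of that limit in these low values was not tested. Of 3 claustrum and endopiriform genes, Oprk1 was lower (list median -1.12). Etv1 (layer 5) was at 108, 122, 144 and 163 CPM against 337, 379.8, 516 and 484, and Foxp2 (layer 6) at 11.6, 23.6, 19.4 and 18.1 CPM against 87.5, 74.7, 55.3 and 46.7. Camk2a was at 652, 702, 637 and 602 CPM against 669, 646, 580.3 and 549, with overlap of the sets.

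Other genes of the 20 leading by the rule encode secreted, matrix and adhesion proteins, a grouping made after their values were seen and not tested. Fn1, fibronectin, had a mean of 24.0 CPM against 0.476, and Crispld1, Efemp1, Pamr1, Col8a1 and Col26a1 were among them at means of 25.7 to 86.5 CPM. Cdh6, a type II cadherin, had a mean of 176 CPM against 13.9, and its relative Cdh9 was lower, at 219, 257, 125 and 175 CPM against 854, 899.5, 849 and 949.6. Ephb1, an axon guidance receptor, had 156 CPM against 25.6. The matrix genes Col5a2 (2.35 CPM against 32.1) and Adamts2 (6.58 against 35.0) and the adhesion gene Sdk2 (3.59 against 38.5) were among the 10 lowest, so matrix genes differed in both directions. Members were limited in Rspo2 UMIs and the matched Rorb 0 nuclei were not, and the part of that limit in the low values was not tested. Against 426 Rspo2-high nuclei, 222 of 7305 genes (3.04%) were 2-fold higher and 137 (1.88%) lower in every library, led by Kcnh5, Kcnk2, Ptchd4, Tox3 and Vwa5b1; Kcnh5, Kcnk2, Ptchd4 and Vwa5b1 also led against Rorb 0 nuclei.

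Excitatory-marker members were also divided by the level of Rorb, the value that chose them, as a description across nuclei that share libraries. From 4 to under 8, 8 to under 12, 12 to under 16 and 16 or more Rorb UMIs per 10000 (112, 96, 42 and 57 nuclei), Bmpr1b was at 172, 252, 305 and 385 CPM. The lncRNA 4930467D21Rik was at 92.4, 139.8, 152 and 228 CPM, and Cdh9 at 261, 215, 106 and 56.4 CPM. Some other genes had no steady order over the bins. Sema3d was at 39.0, 67.1, 69.0 and 51.5 CPM and Kcnh5 at 418, 545, 710.0 and 658 CPM. Cux2 was at 119.6, 127, 144 and 118 CPM and Camk2a at 644, 696, 627 and 564 CPM. Within each library Bmpr1b was higher at 8 or more than below 8, at 371, 281, 295 and 229 CPM against 168, 132, 206 and 191 CPM. The same held for 4930467D21Rik, at 194, 137, 191 and 132 CPM against 118, 44.1, 94.5 and 108 CPM. The step was smallest in DISC1-N replicate 2 for both genes. Kcnh5, Sema3d, Cdh6, Npsr1 and Slc1a2 were also higher at 8 or more in every library, whereas Cux2 and Camk2a were not. In WT replicate 2 some of these steps were small, with Kcnh5 at 618 against 610 CPM and Sema3d at 44.8 against 42.9 CPM.

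**Figure D3:**
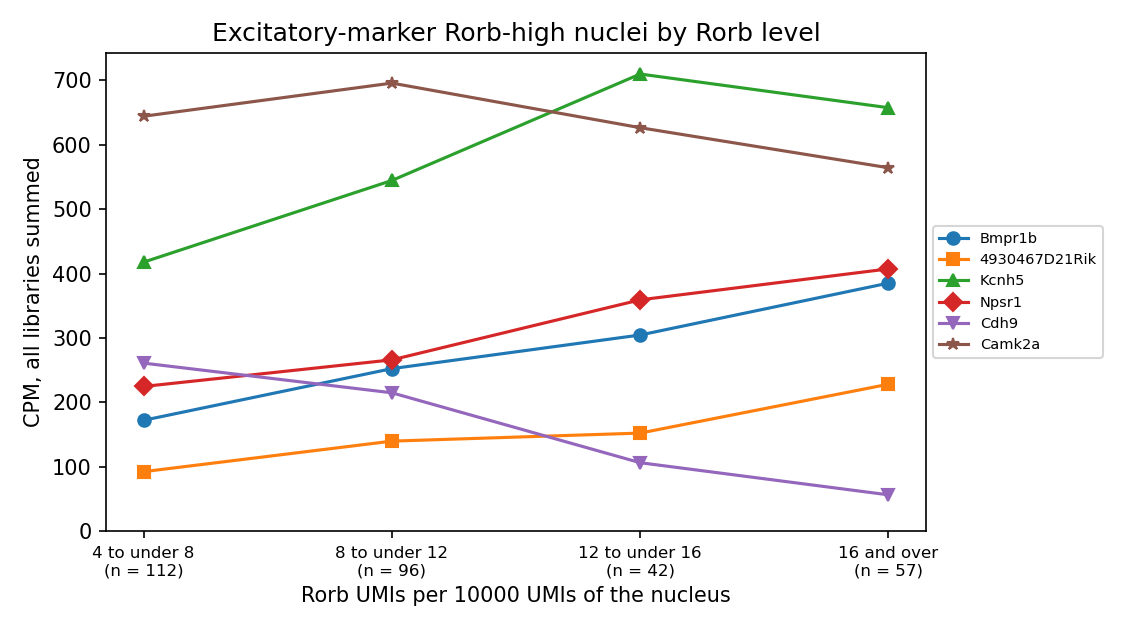
CPM of 6 genes (vertical axis, the 4 libraries summed) in excitatory-marker Rorb-high nuclei by Rorb UMIs per 10000 UMIs (horizontal axis, 4 bins with their number of nuclei). Bmpr1b, 4930467D21Rik and Npsr1 are higher in each successive bin, Cdh9 is lower in each, Kcnh5 peaks in the third bin, and Camk2a stays between 564 and 696 CPM.

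Clustering of the 603 members without the genes of the rule gave 6 clusters, which are left unnamed. Cluster 1 (190 nuclei, 54, 29, 55 and 52 per library) had a median astrocyte share of 96.2% of marker UMIs and 495 CPM of Bmpr1b. Cluster 0 (103 nuclei) had a median share of 70% and carried 52 of the Scrublet-marked nuclei (50.5% of the cluster). The other 4 clusters had median shares of 12.9 to 26.9%. Of these, clusters 2 and 5 had the most Bmpr1b (409 and 362 CPM), 4930467D21Rik (214 and 199.9 CPM) and Kcnh5 (667 and 737 CPM). Cluster 2 held 53, 22, 8 and 1 nuclei and cluster 5 held 5, 6, 36 and 52, so one was mostly replicate 1 and the other mostly replicate 2. Clusters 3 (50 nuclei) and 4 (77 nuclei) were spread over all libraries and had 80.9 and 103 CPM of Bmpr1b. Npsr1, the neuropeptide S receptor, was at 291 CPM in cluster 2 and 539.6 CPM in cluster 5 but at 60.7 CPM in cluster 3.

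As a share of glutamatergic nuclei, members were 8.46% (exact 95% interval 7.33 to 9.70), 6.16% (5.06 to 7.42), 7.83% (6.69 to 9.10) and 7.84% (6.70 to 9.10). DISC1-N replicate 1 was the lowest, and its interval overlapped those of the other 3 libraries; the intervals cover counting error only. The means were 8.15% ± 0.443 in WT and 7.0% ± 1.19 in DISC1-N (SD, n = 2 each; exact permutation test, two-sided p = 0.667). Within replicate number the difference was -2.29 points in replicate 1 and 0.00895 points in replicate 2. Restricted to excitatory-marker nuclei, the shares were 5.24%, 4.28%, 4.57% and 5.20%, with differences of -0.958 and 0.637 points within replicates (mean -0.160; exact permutation test, two-sided p = 0.667). The genotypes overlapped in both measures.

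**Figure D4:**
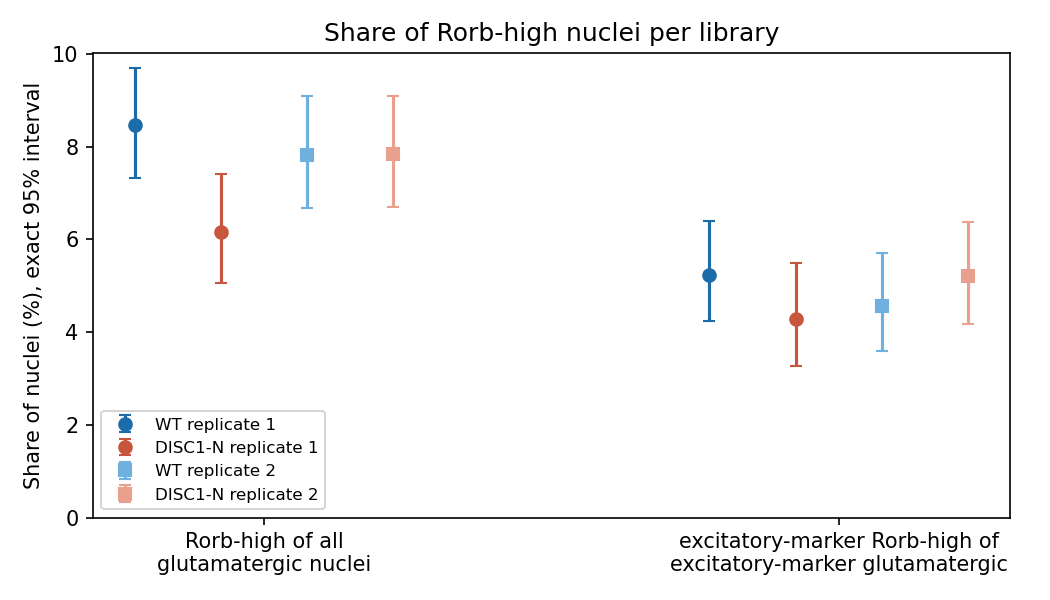
Share of Rorb-high nuclei (vertical axis, %) in each library, among all glutamatergic nuclei (left) and, for excitatory-marker nuclei, among glutamatergic nuclei with more excitatory marker UMIs (right), with exact 95% binomial intervals. DISC1-N replicate 1 is lowest on both sides, at 6.16% and 4.28%.

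Genotype was compared on UMI counts summed over the members of each library, with edgeR's quasi-likelihood test (TMM scaling) and Benjamini-Hochberg adjustment over all genes tested. Disc1 had 16.4, 10.9, 12.1 and 19.8 CPM in members, with overlapping genotypes; the labels do not say which part of the gene DISC1-N carries, so this 3′ count does not check the labels. In all members 0 of 9964 genes (0%) passed an adjusted p of 0.05, with 152 at an unadjusted p under 0.05; DESeq2 and limma-voom also called 0, with 14 and 151 at an unadjusted p under 0.05. With the replicate number as a block, which leaves 1 residual degree of freedom, 6 genes (0.0602%) were called. In Rorb 0 nuclei the same fits called 0 (with 95 at an unadjusted p under 0.05) and 35 of 16739 genes (0.209%). In all 4834 depth-matched Rorb 0 nuclei, of either marker kind, they called 0 (with 93) and 202 of 16001 (1.26%).

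Those 6 were 3 higher and 3 lower, and not all were even over the replicates. Zfp804b, a zinc finger gene, fell: it was at 162, 119, 229 and 130.5 CPM, both DISC1-N libraries below both WT libraries (edgeR with block, log2 -0.63 ± 0.14 SE, adjusted p = 0.0350; without block -0.62 ± 0.22, adjusted p = 1.00). Pld5, a phospholipase D family member, rose under the block from 12.3 to 63.2 CPM in replicate 1 and stood at 46.3 and 52.4 CPM in replicate 2 (1.12 ± 0.26, adjusted p = 0.0350). Its difference lay almost wholly in replicate 1, where WT was low. Vcan, versican, of the oligodendrocyte precursor list, fell at low counts, from 15.7 to 4.86 and from 43.0 to 12.8 CPM. The lincRNA Gm34544 and Gm47283, annotated on chromosome Y, rose, and AC149090.1 was called lower although it was higher in DISC1-N of replicate 1 (518 and 597 CPM) and lower in replicate 2 (682 and 279 CPM).

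In excitatory-marker members 0 of 8114 genes (0%) were called without the block, with 182 at an unadjusted p under 0.05, and 17 (0.21%) with it, 7 higher and 10 lower (0.123%). Mitochondrially encoded genes were 6 of the 10. mt-Atp6, a subunit of ATP synthase, was at 286, 99.6, 72.2 and 23.7 CPM, lower in DISC1-N of each replicate (edgeR with block, log2 -1.52 ± 0.20, adjusted p = 4.43e-11). WT replicate 2 was below DISC1-N replicate 1, so the genotypes overlapped across batches. mt-Cytb, mt-Co1, mt-Co2, mt-Co3 and mt-Nd4 also fell, and all 9 tested genes of the list were below 0, with a median log2 change of -0.98 against -0.00057 over all genes. The median mitochondrial share of these nuclei, given above, moved the same way in replicate 1 and the opposite way in replicate 2. In the depth-matched excitatory-marker Rorb 0 nuclei the block called 70 of 15866 genes (0.441%) and no block called 0. There mt-Atp6 was at 290.2, 141, 51.1 and 27.4 CPM (edgeR with block, -0.98 ± 0.08, adjusted p = 1.08e-07), so it fell in these nuclei too. In astrocyte-marker members mt-Atp6 was at 357, 539, 35.4 and 47.4 CPM and did not pass, and the test of the difference between the 2 kinds is given below. The 6 calls rest on the block, and whether mitochondrial RNA outside nuclei has a part was not tested.

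Rfx3, a transcription factor of ciliary genes, fell in both replicates. It was at 153, 84.4, 229 and 121 CPM (edgeR with block, log2 -0.87 ± 0.17, adjusted p = 0.000388), and both DISC1-N libraries were below both WT libraries. Cck, the cholecystokinin neuropeptide, fell from 231 to 154 and from 146 to 71.2 CPM (-0.74 ± 0.17, adjusted p = 0.00664), with overlap across batches. Col25a1, a membrane collagen, rose from 117 to 204 and from 109 to 151 CPM (0.67 ± 0.17, adjusted p = 0.0315). Haghl, a glyoxalase-like gene, rose from 44.1 to 99.6 and from 61.6 to 88.0 CPM (0.87 ± 0.22, adjusted p = 0.0467). Pld5 was at 8.13, 81.0, 56.3 and 57.2 CPM (1.28 ± 0.28, adjusted p = 0.00649), with log2 differences of 3.17 in replicate 1 and 0.02 in replicate 2. In the clusters above, Pld5 had no UMI in clusters 1, 2 and 5, 39.5 CPM in cluster 0, 52.0 CPM in cluster 3 and 124 CPM in cluster 4, which held 16 nuclei of each replicate 1 library. None of these 5 genes passed without the block (edgeR adjusted p = 1.00 each).

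**Figure D5:**
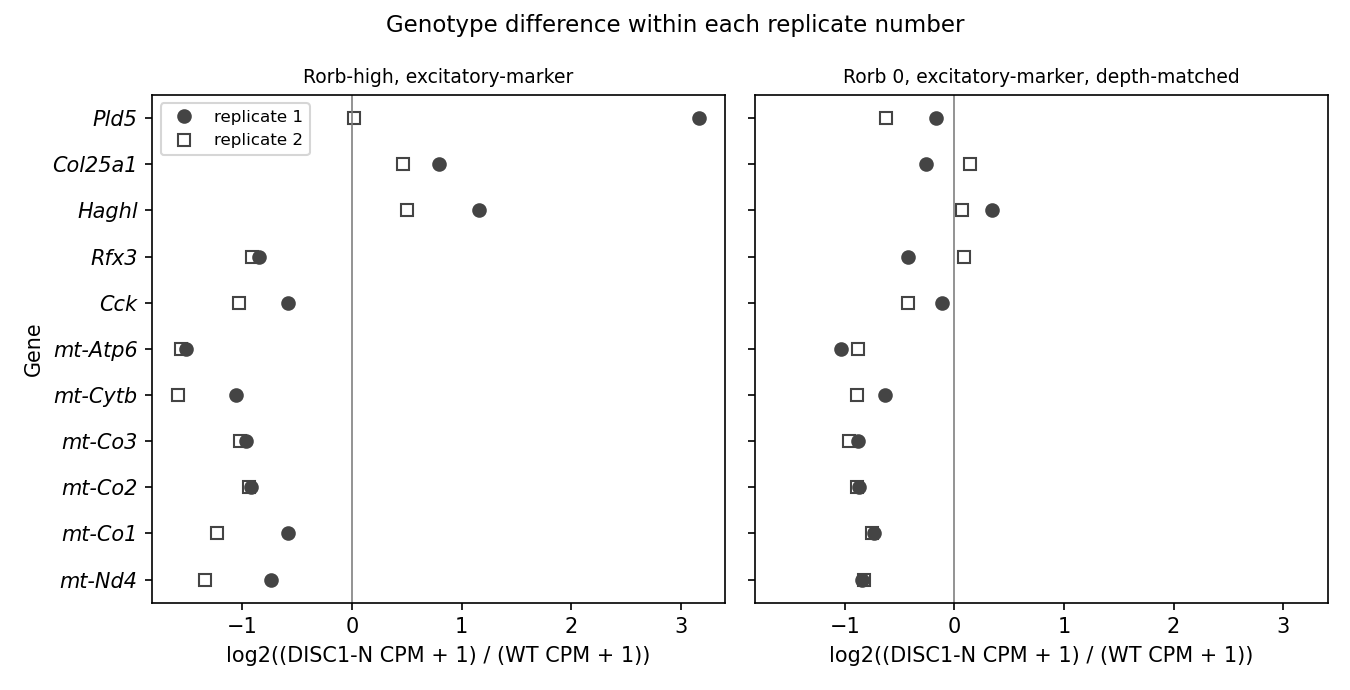
Log2 ratio of DISC1-N to WT CPM (1 CPM added) within replicate 1 (filled circles) and replicate 2 (open squares) for 11 genes called with the replicate block, in excitatory-marker Rorb-high nuclei (left) and depth-matched excitatory-marker Rorb 0 nuclei (right). Rfx3 and mt-Atp6 differ by like amounts in both replicates on the left, Pld5 differs in replicate 1 alone, and the 6 mitochondrial genes are below 0 on both sides.

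The genes that set the Rorb-high profile apart did not pass in the genotype comparison, with or without the block. In excitatory-marker members Bmpr1b differed by -0.33 ± 0.14 on the log2 scale (edgeR with block, adjusted p = 0.731), 4930467D21Rik by -0.51 ± 0.17 (adjusted p = 0.397) and Sema3d by 0.31 ± 0.25 (adjusted p = 0.986). The genotypes did not overlap for Bmpr1b and 4930467D21Rik, which had the lower values in DISC1-N. Of the listed pathways, BMP receptors had 0 of 8 genes called with a median log2 change of 0.03, semaphorin receptors 0 of 6 (0.04), potassium and HCN channels 0 of 24 (-0.01), AMPA and kainate receptors 0 of 13 (-0.03) and DISC1 partners 0 of 15 (-0.02). Endoplasmic reticulum chaperones had 0 of 16 called with a median of -0.28, and heat shock chaperones 0 of 9 with a median of -0.36 and all 9 below 0. Over all 8114 genes 17 were called, 50.1% were below 0 and the median was -0.00057. Granins and neuropeptides had 1 of 11 called, which was Cck. A p that misses the threshold here does not show that levels were equal. Wfs1, named in the study's title, was at 3.48, 3.38, 5.28 and 6.98 CPM in excitatory-marker members and at 19.0, 14.1, 10.8 and 8.76 CPM in the matched Rorb 0 nuclei.

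In astrocyte-marker members 0 of 6018 genes (0%) were called without the block, with 98 at an unadjusted p under 0.05, and 3 (0.0499%), all lower, with it. Kctd16, an auxiliary subunit of GABA-B receptors, was at 892, 421, 874 and 585 CPM (edgeR with block, log2 -0.82 ± 0.18, adjusted p = 0.0130), both DISC1-N libraries below both WT libraries. Zfp804b was at 219, 130.3, 322 and 129 CPM (-1.05 ± 0.25, adjusted p = 0.0382), again with no overlap. Gm32647 was at 117, 47.8, 378 and 105 CPM. In astrocyte-marker nuclei with no transporter UMI, Kctd16 was at 288, 364, 143 and 154 CPM, higher in DISC1-N of both replicates. Zfp804b was at 152, 249, 197 and 180 CPM there, higher in DISC1-N of replicate 1 and lower in replicate 2. In excitatory-marker members Kctd16 was at 1755, 1544, 1606 and 1742 CPM. The genotype effect on Kctd16 differed between the 2 kinds of member by 0.82 ± 0.19 (edgeR interaction with block, adjusted p = 0.0370). It was 1 of 10 of 9411 genes called in that test with the block (0.106%), against 1 gene without it (0.0106%). Mitochondrial genes were 5 of the 10, with mt-Atp6 lowest in adjusted p (-2.06 ± 0.31, adjusted p = 2.87e-06).

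Whether genotype acted differently in Rorb-high and Rorb 0 nuclei was tested as an interaction with library as a block in edgeR. Over all members the interaction called 0 of 16032 genes (0%), with 544 at an unadjusted p under 0.05 and Pld5 lowest (1.45 ± 0.30, adjusted p = 0.149). With the effect taken within replicate number it called 8 (0.0499%): Pld5, Gm34544, Hmcn1 and Tenm2 in the positive direction and Apoe, Npsr1, Wdr17 and Vcan in the negative one. Apoe, a lipid carrier made mainly by astrocytes, had a difference of -0.54 ± 0.10, beside the lower share of astrocyte-marker members in DISC1-N given above; the part of that share was not tested. Between excitatory-marker members and matched Rorb 0 nuclei the interaction called 4 of 14870 genes (0.0269%) and 10 (0.0672%) within replicate number. Rfx3 (-0.77 ± 0.17, adjusted p = 0.0157) and Col25a1 (0.73 ± 0.17, adjusted p = 0.0342) were among the 10, as was Npsr1 (-0.59 ± 0.13, adjusted p = 0.0176).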

How the data were processed

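Libraries of BLA nuclei were made with the 10x 3′ v3 kit. Each deposited matrix holds raw UMI counts by gene and barcode, which the authors made on mm10 without normalization, per the file headers and labels. Per the file headers Cell Ranger was 7.0.0 for replicate 1 and 6.0.2 for replicate 2, whereas the submitters' processing notes give 7.0.0; whether intronic reads were counted is not given in the sources used here. The members, gene lists and tests were chosen with earlier results of these data known.

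UMIs were summed per library and set of nuclei and scaled to CPM. Depth-matched Rorb 0 nuclei had at least the UMIs of the 10th percentile of members in their library and at most 1 Gad1 and Gad2 UMI. Sums were tested with edgeR 4.0.16 in R 4.3.3 (filterByExpr, minimum count 10), with DESeq2 1.42.0 and limma 3.58.1 as alternatives. Clustering used scanpy 1.11.5 (2000 variable genes, 20 components, resolution 0.5). Scrublet scores marked the nuclei most like doublets, in proportion to the size of the library. Leading genes are the 20 whose smallest ratio over libraries was highest and the 10 whose largest ratio was lowest, at 20 CPM or more, leaving out rule genes, predicted transcripts and mitochondrial, ribosomal and sex-linked genes; genotype genes are up to 10 in each direction. Genes shown outside this rule were taken from the lists or chosen after their values were seen. GENCODE IDs matched for 32158 of 32285 genes.

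Replicate numbers are a processing batch per the file headers; same-numbered libraries deviated together (r = 0.404 over 7126 genes, across genes, in members). On simulated data the edgeR fit without the block recovered 0% of changed genes in members. The blocked fit recovered 18.9% of 1.5-fold and 63.4% of 2-fold changes, with 4 false calls of 9674 genes. The simulation kept the observed difference between replicate numbers and drew its noise at the dispersion of the blocked fit. Its setting thus favoured the block, so it cannot show which fit is right for these data.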

Additional observations from a re-analysis of the deposited data

Results flagged for a closer look

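Between excitatory-marker members and depth-matched excitatory-marker Rorb 0 nuclei, the genotype effect differed for 4 genes in an edgeR interaction test with Benjamini-Hochberg adjustment. Gm34544 had a difference of log2 fold change of 1.35 (adjusted p = 2.71e-06). It was at 56.9, 150.2, 100.4 and 311 CPM in members and at 206, 337, 389 and 336 CPM in Rorb 0 nuclei, in the order of libraries used above. Pld5 had a difference of 1.69 (adjusted p = 0.00189), from 8.13, 81.0, 56.3 and 57.2 CPM against 19.4, 17.2, 21 and 13.3 CPM; WT replicate 1 had 7 UMIs of it in members. Fbxl7, an F-box protein gene, had a difference of 3.71 (adjusted p = 0.0280) from 1, 8, 1 and 12 UMIs in members, against 21.2, 15.7, 20.1 and 17.6 CPM in Rorb 0 nuclei. 4931415C17Rik had a difference of -2.85 (adjusted p = 0.0280), from 6, 2, 22 and 4 UMIs in members, of which WT replicate 2 gave the most.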

How the results depend on the processing

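Counts of genotype calls depended on the block. In members, 0 genes without and 6 with the replicate block were called, 2 with no expression filter and 0 to 1 with each library left out (1 without WT replicate 1). Within the block, the count was 3 after thinning, 117 at 6 or more Rorb UMIs, 13 with no Gad or Rspo2 UMI allowed and 14 under 1% mitochondrial UMIs, and 0 with no replicate block. In Rorb 0 nuclei the block gave 35 and the difference of members and Rorb 0 nuclei 8; without the block, leaving a library out gave 0 to 18 (highest without DISC1-N replicate 1) and 0 to 13 (highest without WT replicate 1). In excitatory-marker members the block gave 17, and, without the block, no filter gave 4, a library left out 0 to 14 (highest without DISC1-N replicate 1), an astrocyte share under 20% 1 and removal of Scrublet-marked nuclei 1; within the block the 20% limit gave 7 and no block 0. Astrocyte-marker members gave 3, and the difference of excitatory-marker members and matched nuclei 10, with the block. The share of excitatory-marker members was reversed without WT replicate 1 (0.178 points) and without DISC1-N replicate 1 (0.299), over a range from -0.620. The mean difference in the share of members kept its sign in every setting run. It was -1.98 to -0.304 points with a library left out and -0.286 points at 6 Rorb UMIs. Over the settings with all libraries, replicate 1 gave -2.89 to -0.784 points. Replicate 2 gave -0.0440 (thinned to 5000 UMIs) to 0.866 points (6 Rorb UMIs), so the replicates did not share the sign throughout. The cause of these changes was not tested. With a library left out, the lone library of a genotype is assumed to vary like the others. Depth limits what 104 to 186 nuclei per library can show.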
